A study of Oryza sativa with 12 samples.

Results

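In developing rice seeds, 79 probe sets had a higher signal in every array of the transgenic line GR14 than in any array of the 3 other groups measured. They were chosen from 57194 probe sets by their values alone. On the log2 scale of the deposited MAS5 signal, the lowest of the 3 GR14 arrays had to lie at least 1 above the highest of the other 9 arrays, and the GR14 mean had to be at least 8. This gave 84 probe sets, of which 5 were set aside because the rule leaves out 7 named genes, and 5 of these (GI, PCL1, JAZ2, SAPK9 and LIR1) met it. Since all 12 arrays made the choice, the difference of these 79 between GR14 and the other groups is given below as a description, with no test. Of the 79 probe sets, 53 were annotated to 1 gene, together 52 genes, and 26 had no gene name. The annotation gave only 4 of them an informative symbol; the other 49 named probe sets carried a LOC identifier, for which no role is given here.

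The study measured RNA from seeds of 4 groups with 3 Affymetrix rice arrays each, to relate seed development to lysine metabolism. The controls were the wild-type variety Wuxiangjiang9 (WT), labelled as having a normal lysine level, and the transgenic lines GR14, 35S-15 and HFL1 were labelled as having a high one. All plants were grown in a field, and the age was 10 days after flowering by the sample labels and 15 by the series' design text. Earlier work on these lines, and not the labels, describes GR14 as carrying an RNA interference construct against the lysine-degrading enzyme LKR/SDH, 35S-15 as expressing bacterial lysine synthesis enzymes that lysine does not inhibit, and HFL1 as combining both. Each group is 1 line, and the labels do not say whether its 3 arrays came from separate plants, so a p-value here speaks of the spread among these 12 arrays alone, and that spread may be technical.

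A cereal seed at this stage holds a starchy endosperm that fills with starch and storage protein, an aleurone layer and embryo that take up a desiccation and stress programme, and a maternal pericarp that is still green. Lysine made from aspartate is degraded in the endosperm through LKR/SDH, and RNA interference against that enzyme lets free lysine build up. In whole seeds, fewer cells of a type and less RNA per cell cannot be told apart.

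The WT arrays were not alike before any comparison. A reporter-gene control, RPTR-Os-K01193-1_at, was bright in WT array 2 (log2 signal 13.51) and WT array 3 (13.78) but not in WT array 1 (4.53), and no array of the transgenic lines exceeded 4.67. The labels do not account for this signal, so WT arrays 2 and 3 may not be what their labels say, and every comparison with WT rests on them. With WT array 1 as the only WT array, 100 probe sets met the rule, among them all 79. Leaving out arrays outside GR14 cannot raise the highest of the others, so all 79 had to meet the rule again. Their return therefore does not check the choice against the doubt about WT arrays 2 and 3. Any 2 arrays correlated with a Spearman coefficient between 0.925 and 0.971 across 31792 probe sets. Those 31792, each brighter than the array median in 3 or more of the 12 arrays, are the ones tested, and the way the 79 were chosen placed all of them there. The array medians lay between 5.67 and 6.09.

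Over the 79 probe sets the gap between the lowest GR14 array and the highest of the other 9 had a median of 1.40 and ran from 1.02 to 4.71 on the log2 scale. It was at least 2 for 17 probe sets, at least 3 for 6 and at least 4 for 2, while 42 had a gap under 1.5. The difference between the GR14 mean and the mean of the other 9 arrays had a median of 2.70 and ran from 1.44 to 7.41, which is 2.71-fold to 170-fold with a median of 6.48-fold. It was at least 2 for 64 probe sets and at least 4 for 13. By this rule 79 of 31792 tested probe sets, or 0.248%, were chosen, and 5.89% had all 3 GR14 arrays above the other 9 by any amount.

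**Figure D1:**
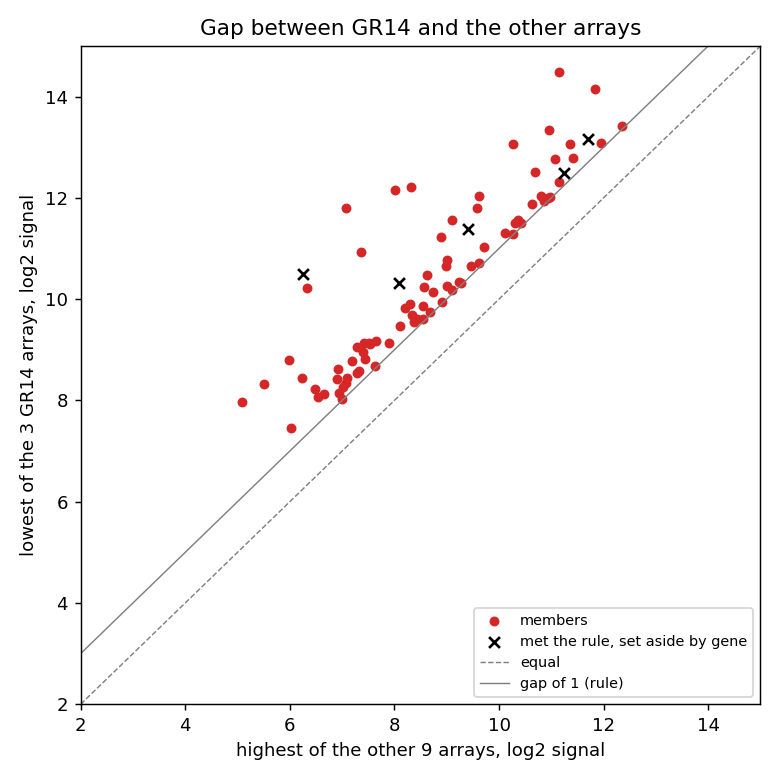
Each point is a probe set, with the highest log2 signal of the 9 arrays outside GR14 on the x axis and the lowest log2 signal of the 3 GR14 arrays on the y axis. The 79 red points lie on or above the line for a gap of 1, by up to a gap of 4.71, and the 5 crosses are the probe sets set aside by gene.

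The edges of the choice were not sharp. The probe sets just inside the gap threshold were those of LOC4339960 (1.02) and 2 without a gene name, Os.45974.1.A1_at (1.03) and Os.51774.1.S1_at (1.04). Just outside it were those of LOC4324947 (0.99 on Os.53707.1.S1_x_at), LOC4334106 (0.99) and LOC4335067 (0.99), although LOC4324947 was chosen through another of its probe sets, Os.32964.1.S1_at. At the threshold on the GR14 mean, LOC4330542 (8.25), Os.22312.2.S1_x_at (8.29) and OsAffx.28294.2.S1_x_at (8.35) were just inside, and Os.22312.2.S1_at (7.95), Os.30575.1.A1_at (7.94) and a probe set of LOC4341032 (7.89 on Os.19061.1.S1_s_at) were just outside.

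Among the 4 genes with a symbol, BBD1 had the widest gap. BBD1 is named for a bifunctional nuclease of the basal defence response. Its log2 signals were 12.39, 12.04 and 12.29 in GR14, 8.92, 9.16 and 9.62 in WT, 9.08, 9.50 and 9.45 in HFL1, and 9.02, 9.07 and 9.24 in 35S-15. The 3 groups outside GR14 overlapped one another and lay at least 2.42 below GR14, a difference in means of 3.01, or 8.07-fold. The limma log2 folds without GR14 were -0.12 ± 0.19 (SE) for 35S-15 against WT and 0.11 ± 0.19 for HFL1 against WT, with adjusted p values of 0.933 and 0.947.

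HSF03 encodes a protein of the heat shock transcription factor family and is also listed as HSFC1B, a class C factor. Its log2 signals were 10.48, 10.29 and 9.83 in GR14, 8.21, 8.12 and 7.37 in WT, 7.72, 6.95 and 6.11 in HFL1, and 8.01, 6.82 and 7.37 in 35S-15. The GR14 mean lay 2.79 above that of the other 9 arrays, or 6.94-fold. HFL1 held the lowest array and WT the highest of those 9, with a limma log2 fold of -0.97 ± 0.40 for HFL1 against WT that did not pass the test (adjusted p 0.724). Of the 43 tested heat shock factor and heat shock protein genes, HSF03 was the 1 among the chosen transcripts. In the limma test of GR14 against WT 2 of the 43 were higher and 5 lower, against 2.7% and 2.96% of all probe sets, and none passed in 35S-15 or HFL1. HSF03 is among the 2 higher and was chosen for being high in GR14, so that count is not independent of the choice.

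SAUR39 belongs to the small auxin-up RNA genes and is known in rice as a negative regulator of auxin synthesis and transport. Its log2 signals were 10.89, 10.47 and 10.60 in GR14, 8.61, 8.48 and 8.01 in WT, 8.47, 7.51 and 8.44 in HFL1, and 8.09, 7.62 and 7.84 in 35S-15. The GR14 arrays lay at least 1.86 above the rest, and the other 3 groups overlapped. Of the 71 tested genes of the auxin, gibberellin, cytokinin and brassinosteroid list, SAUR39 was the 1 chosen, and 2 were higher and 1 lower in the limma test of GR14 against WT, near or below the 2.7% and 2.96% of all probe sets. SAUR39 is among the 2 higher, so that count is not independent of the choice.

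OsTIP4;1 is an aquaporin of the tonoplast, the membrane of the vacuole, through which water passes. Its log2 signals were 12.73, 12.30 and 12.69 in GR14, 10.79, 11.14 and 10.96 in WT, 10.50, 9.90 and 10.98 in HFL1, and 10.77, 10.09 and 9.66 in 35S-15. Its gap of 1.16 was among the narrower ones, and its GR14 mean was 4.12-fold above that of the other 9 arrays. Against WT, 35S-15 had a limma log2 fold of -0.79 ± 0.28 (adjusted p 0.803) and HFL1 one of -0.50 ± 0.28 (adjusted p 0.796), so neither passed. Another probe set of the gene, Os.46385.1.A1_at, had means of 5.14 in GR14 and 5.05 in the other 9 arrays, below the array medians, and was not tested.

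The widest gaps belonged to transcripts without a symbol. OsAffx.17314.1.S1_s_at, which has no gene name, had log2 signals of 12.02, 11.80 and 11.86 in GR14, against a lowest, median and highest of 2.36, 5.77 and 7.08 in the other 9 arrays. A second probe set with the same cluster number, OsAffx.17314.1.S1_at, had 12.15, 12.23 and 12.24 in GR14, against 2.49, 3.84 and 8.02. Both were tight in GR14 and scattered over several log2 units elsewhere, around the array medians, so the size of their differences (6.21 and 7.41) is uncertain, as no detection calls were used. Another probe set of that number, OsAffx.17314.2.S1_at, went the other way, with a mean of 1.27 in GR14 and 4.32 in the other 9 arrays. Both means lay below the array medians.

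LOC4337388 had 10.98, 10.24 and 10.22 in GR14, against a lowest, median and highest of 3.29, 5.41 and 6.32 in the other 9 arrays. LOC4341032 had 9.29, 7.96 and 9.57 against 0.09, 4.07 and 5.09. These transcripts, like OsAffx.26649.1.S1_x_at (10.12, 8.33 and 9.64 against 1.31, 2.69 and 5.51) and Os.35524.1.S2_at (8.80, 9.25 and 9.65 against 3.70, 4.70 and 5.98), had most or all of the other 9 arrays near or below the array medians. Over the 79, all GR14 arrays were above their array's median, 51 probe sets were above it in all 9 other arrays too, 26 in some of them, and 2 in none.

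Most of the chosen transcripts were thus above the array median in every group. LOC4334643 had 14.65, 14.95 and 14.48 in GR14, against 8.83, 9.93 and 11.16 as the lowest, median and highest of the other 9 arrays, a 25.7-fold difference in means. LOC4333342 had the smallest scatter of the 79 outside GR14, with 13.69, 13.11 and 13.07 in GR14 against 9.85, 9.96 and 10.27, a difference of 3.27 with an SD of 0.15 over the 9 arrays. LOC4343262 had 10.94, 11.14 and 10.93 against 5.86, 7.10 and 7.36, with 1 of the 9 arrays below its array median. Os.46431.1.S1_at, without a gene name and also with 1 of the 9 arrays below its array median, had 12.44, 12.21 and 12.24 in GR14 and 5.92, 6.62 and 5.71 in WT, with 6.97 to 8.32 in 35S-15 and 6.47 to 8.05 in HFL1. Its WT mean was the lowest of the 3 groups, with a limma log2 fold against WT of 1.50 ± 0.40 for 35S-15 (adjusted p 0.745) and 1.07 ± 0.40 for HFL1 (adjusted p 0.693).

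The probe sets with the highest GR14 means included, besides LOC4334643, those of LOC9268371, LOC4351088, LOC4346226 and Os.46604.1.S1_s_at. LOC9268371 had 14.48, 14.71 and 14.15 in GR14 against a lowest, median and highest of 9.40, 11.14 and 11.84 in the other 9 arrays. LOC4351088 had 13.61, 13.62 and 13.41 against 10.99, 11.81 and 12.35, one of the smaller differences at 1.74. LOC4346226 had 13.39, 14.00 and 13.08 against 9.77, 10.95 and 11.95, and Os.46604.1.S1_s_at had 13.58, 13.43 and 13.35 against 10.09, 10.49 and 10.95. These probe sets were bright in every array and higher in GR14, with no overlap by the rule.

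**Figure D2:**
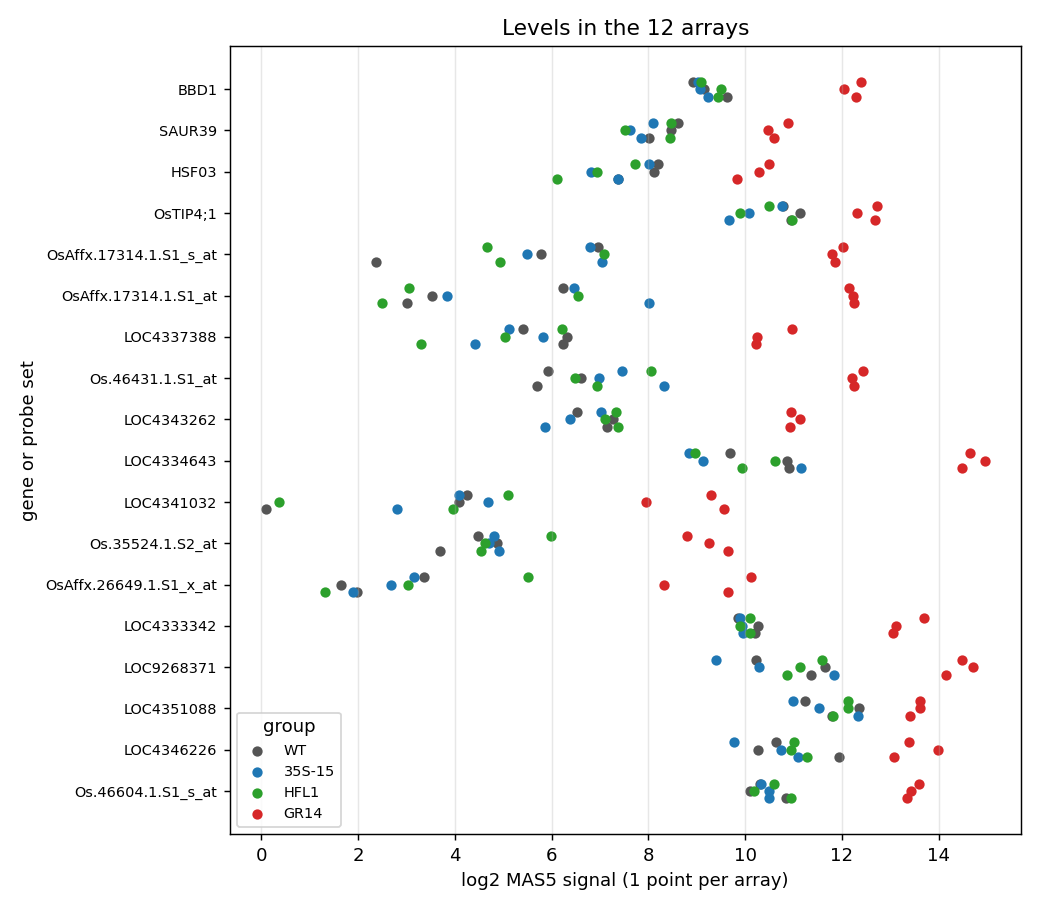
The x axis gives the log2 MAS5 signal, with 1 point per array, for the 4 genes with a symbol, the 10 probe sets with the widest gap and the 5 with the highest GR14 mean (1 probe set is in 2 of these sets). The red GR14 points lie to the right of all others in every row, while the WT, 35S-15 and HFL1 points mostly intermingle; in the rows from OsAffx.17314.1.S1_s_at to OsAffx.26649.1.S1_x_at some non-GR14 points spread over several log2 units.

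The SD over the 3 GR14 arrays had a median of 0.29 over the 79 probe sets and ran from 0.028 to 1.17. The rule, which reads the lowest GR14 array, favours probe sets with a small spread there. GR14 array 3 was the lowest of the 3 for 40 probe sets, array 1 for 21 and array 2 for 18. For the control transcripts, whose 3' and 5' ends are measured apart, array 3 had the largest excess of the 3' end among the arrays for actin (6.43 on the log2 scale, against 4.69 to 5.92 elsewhere) and ubiquitin (0.14) and the smallest for EF1a (-2.29), while for GAPDH (3.87) 35S-15 array 1 was higher (4.93) and for cyclophilin (0.88) it lay within the range of the others. Without GR14 array 3 the rule was met by 152 probe sets, all 79 among them. Leaving out a GR14 array cannot narrow a gap, so the return of the 79 was largely set in advance. The part of RNA integrity in the count of 152 was not tested.

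The array that came nearest to GR14 varied. The highest of the 9 other arrays was WT array 3 for 15 probe sets, 35S-15 array 3 for 12, WT array 2 and HFL1 array 3 for 11 each, HFL1 array 2 for 10 and the remaining 4 arrays for 2 to 8 each. The group with the highest mean of the 3 was HFL1 for 32 probe sets, WT for 28 and 35S-15 for 19. Each array's median deviation of the 79 probe sets from their mean over the 9 arrays lay between -0.10 and 0.13 outside GR14, and at 2.85, 2.81 and 2.47 in the 3 GR14 arrays, where the median of all tested probe sets deviated by at most 0.09.

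**Figure D3:**
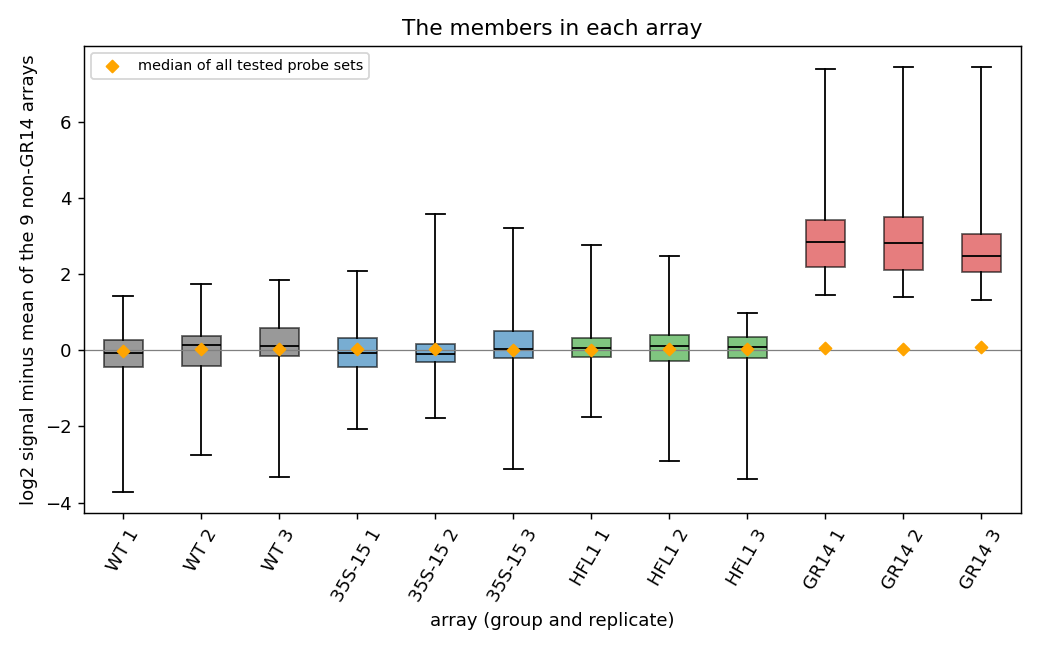
The y axis gives the log2 signal of the 79 probe sets minus their mean over the 9 arrays outside GR14, for each of the 12 arrays on the x axis; boxes span the quartiles, lines the medians, whiskers the full range, and diamonds the median of all tested probe sets. The 9 boxes outside GR14 sit around 0, with medians from -0.10 to 0.13, and the 3 GR14 boxes sit with medians from 2.47 to 2.85, by the rule of choice.

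The comparisons without GR14 were tested. The rule did not use these contrasts, but it kept all 9 arrays of WT, 35S-15 and HFL1 at least 1 below GR14, so a transcript raised as much in HFL1 or 35S-15 as in GR14 could not be chosen, and the lack of calls here is shaped by the choice. HFL1, which by earlier work carries the GR14 construct, was compared with WT and with 35S-15. None of the 79 probe sets passed the limma test in HFL1 against WT, where 0.0283% of all tested probe sets were called, and 13 of them had an unadjusted p under 0.05. The median log2 fold was 0.024, against 0.010 over all tested probe sets. Of the 79, 44 were higher and 35 lower in HFL1, where 51.5% of all tested probe sets were higher. The folds ran from -1.14 to 1.74, and 71 of the 79 were within 1 of 0. Without WT array 1 the median was -0.057. With WT array 1 as the only control the median of the 79 was 0.171, against 0.036 over all tested probe sets.

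In 35S-15 against WT none of the 79 passed either (0.0283% of all called), with 11 at an unadjusted p under 0.05. The median log2 fold was -0.076, against 0.013 over all tested probe sets. Of the 79, 34 were higher and 45 lower in 35S-15, where 51.8% of all tested probe sets were higher. The median of the 79 turned to 0.0027 without WT array 3. With WT array 1 as the only control it was -0.061, against 0.036 over all tested probe sets. In HFL1 against 35S-15 none passed (0.00629% of all called). An unadjusted limma p under 0.05 was held by 6 of the 79, or 7.59%, against 4.46% of all tested probe sets. With the 9 arrays outside GR14 fitted alone these shares were 6.33% and 4.27%. The median log2 fold was 0.11 against 0.0030, and 48 were higher and 31 lower, where 50.4% of all tested probe sets were higher. The 2 comparisons with WT share their controls. An unadjusted p under 0.05 was held by 16.5% of the 79 in HFL1 and by 13.9% in 35S-15 against WT, where it was held by 6.74% and 6.19% of all tested probe sets. These shares are not independent of the choice, since the rule favours probe sets with little scatter in GR14, which enters the shared estimate of spread; with the 9 other arrays fitted alone they were 7.59% and 11.4%, against 6.59% and 5.95% of all.

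**Figure D4:**
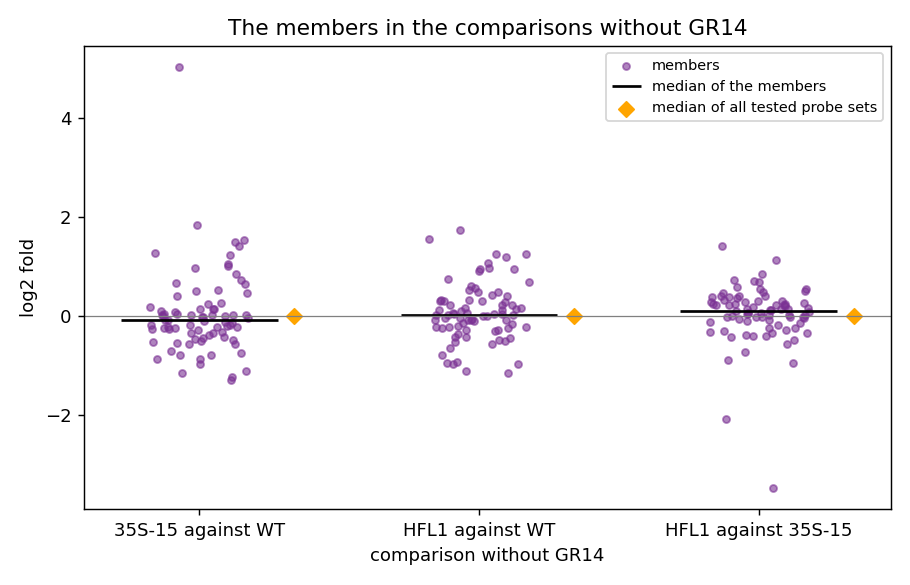
The y axis gives the limma log2 fold of each of the 79 probe sets (points) in the 3 comparisons without GR14 on the x axis, with the median of the 79 as a bar and the median of all tested probe sets as a diamond. The medians of -0.076, 0.024 and 0.11 lie close to 0, and the point at 5.03 in 35S-15 against WT is LOC9268613.

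LOC9268613 stood out among the 9 other arrays, and was singled out after its values were seen. Its log2 signals were 3.77, 1.77 and 1.42 in WT, 5.43, 5.07 and 1.14 in HFL1, 6.60, 8.11 and 7.33 in 35S-15, and 9.47, 10.60 and 9.60 in GR14. The 4 groups thus ran in the order WT, HFL1, 35S-15 and GR14, with WT and HFL1 overlapping. Its log2 fold of 5.03 ± 0.98 in 35S-15 against WT had the lowest adjusted p of the 79 in that comparison and did not pass (limma, 0.277). The size and the order are uncertain, since all WT and HFL1 arrays lay below the array medians. The probe set, Os.20614.3.S1_x_at, is also of a kind that can bind transcripts of more than 1 gene. Another probe set of the gene, Os.20614.1.S1_at, had a GR14 mean of 9.34 and a mean of 7.24 in the other 9 arrays, which does not speak of 35S-15 against WT. Os.20614.4.S1_x_at, of the same cluster number and without a gene name, had means of 8.45 and 5.79, and there GR14 overlapped the other 9 arrays.

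In HFL1 against WT the lowest p belonged to Os.51637.1.S1_x_at, without a gene name, which had 4.52, 5.31 and 6.37 in WT, 6.22, 7.89 and 7.31 in HFL1 and 9.77, 10.06 and 9.14 in GR14; its log2 fold of 1.74 ± 0.48 had a limma adjusted p of 0.613. In HFL1 against 35S-15 it belonged to LOC4329558, which had 5.93, 4.60 and 5.69 in 35S-15, 7.01, 6.85 and 6.59 in HFL1, 6.31, 6.65 and 6.54 in WT and 9.58, 9.11 and 8.26 in GR14, with a log2 fold of 1.41 ± 0.40 and an adjusted p of 0.974. Counting the probe sets whose 3 arrays of 1 group lay wholly above or below the 6 of the other 2 groups outside GR14 gave 6 of the 79, or 7.59%, against 7.66% of all tested probe sets. They were LOC4331855 with WT above (background 1.3%), LOC9268613 and Os.51299.1.S1_at with 35S-15 above (1.3%), LOC4348024 and LOC4329558 with 35S-15 below (0.931%) and LOC4343921 with HFL1 below (0.94%). None had WT below (1.88%) or HFL1 above (1.3%), and the total share is near the background.

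The rule was also applied with each other group in the place of GR14. It was met by 2 probe sets high in 35S-15, 1 high in HFL1 and 0 high in WT, against 84 in GR14 before genes were set aside. For probe sets low in 1 group, with the mean of the other 9 arrays at least 8, the counts were 167 in GR14, 6 in WT, 0 in 35S-15 and 0 in HFL1. The 5 probe sets set aside had gaps of 4.24 (PCL1), 2.23 (JAZ2), 1.98 (SAPK9), 1.45 (LIR1) and 1.25 (GI). The clock gene GI had 12.49, 12.58 and 12.58 in GR14 against 10.98 to 11.24 in the other 9 arrays, and the light-regulated gene LIR1 had 13.77, 13.64 and 13.15 against 10.61 to 11.71.

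Other probe sets of the same genes give another reading, not an independent one, on the same arrays. For 12 of the 52 genes the array held another annotated probe set. LOC4333719 was chosen through both of its own, with 11.22, 11.23 and 11.27 in GR14 and 7.52 to 8.90 elsewhere on Os.18490.1.S1_x_at, and 11.03, 11.19 and 11.65 against 7.15 to 9.71 on Os.18490.3.S1_at. Of the 18 other probe sets that were not chosen, 13 were tested. GR14 was higher on average in 12 of these 13, by at least 1 in 11, and lay above all 9 other arrays in 11. They read the same RNA on the same arrays, and several share a cluster number with the chosen probe set, so the 5.89% over all tested probe sets is not what they are to be read against.

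LOC4340083 had 3 further probe sets, with GR14 means 2.39, 2.96 and 3.36 above the other 9 arrays, against 3.32 on its chosen one. LOC4339778 had 2, with differences of 1.55 and 1.72 against 1.63. The readings disagreed for LOC4346226, which differed by 2.64 on Os.26698.1.S1_a_at and by -0.07 on Os.26698.2.S1_at, where GR14 ran from 9.98 to 10.17 and the other 9 arrays from 9.57 to 10.62. Os.26698.4.S1_s_at and Os.26698.4.S1_x_at, which share that cluster number and have no gene name, differed by 2.69 and 2.55. For LOC4351088 the difference was 1.74 on the chosen probe set and 0.79 on Os.12735.1.S1_s_at, and 3 other probe sets below the filter had 0.33, -0.47 and -0.69. For LOC4341032 it was 5.67 on the chosen one and 2.06 on Os.19061.1.S1_s_at, with 3.58 on Os.19061.2.S1_at below the filter. Probe sets ending in _x_at or _s_at, which can bind transcripts of more than 1 gene, made up 19.0% of the 79 and 17.4% of all.

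**Figure D5:**
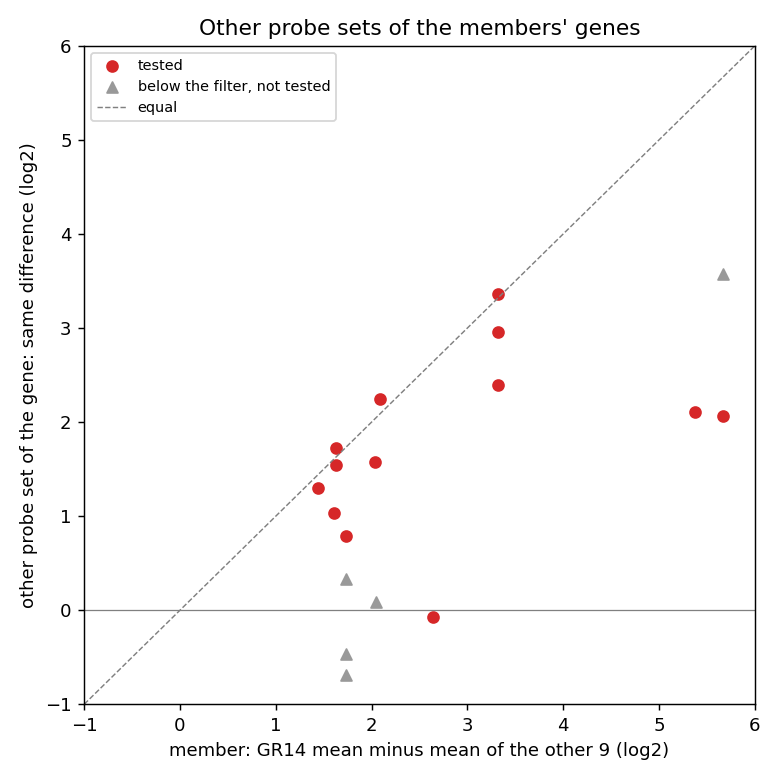
Each point is a probe set that was not chosen but is annotated to the gene of a chosen one, with the GR14 mean minus the mean of the other 9 arrays for the chosen probe set on the x axis and for the other probe set on the y axis, both in log2. Of the 13 tested points (circles), 12 lie above 0, and 1, LOC4346226, lies at -0.07; 5 triangles are probe sets below the filter.

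The probe set names carry the number of the sequence cluster they were designed from, and 10 of the 79 shared that number with another of the 79, leaving 74 numbers. Os.46544.2.S1_x_at, without a name, shares its number with LOC4348520, and had 10.23, 9.72 and 9.14 in GR14 against 6.77 to 7.51 elsewhere, where LOC4348520 had 12.26, 12.07 and 11.81 against 8.49 to 9.58. Os.35524.1.S2_at shares its number with Os.35524.1.S1_at and Os.35524.1.S3_at, which missed the rule and had differences of 4.09 and 3.72 between GR14 and the other 9 arrays. Such numbers alone do not say whether the probe sets read 1 gene.

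The chosen genes were spread over all 12 chromosomes of the RefSeq gene table, with 1 to 7 genes on each. Chromosomes 1 and 3 held 7 each, chromosome 7 held 6, and chromosome 10 held 6, or 11.5% of the 52 against 4.97% of the tested genes with a name. No pair lay within 3 genes of each other in the order of that table, the window first planned. In a wider window of 20 genes the only pair was LOC4348520 and LOC4348526, both on chromosome 10, 8 places apart. LOC4348526 had 8.53, 9.29 and 8.12 in GR14 against a lowest, median and highest of 5.46, 6.28 and 6.66 in the other 9 arrays, a difference of 2.38, against 3.07 for LOC4348520.

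Gene lists by symbol held few of these transcripts, as few of them carry a symbol. Of 15 lists, HSF03 of the heat shock list and SAUR39 of the hormone list were the only members. The lists of clock and light (12 tested genes), jasmonate (30), abscisic acid and drought (81), WRKY (6), NAC (7), MYB (8), AP2 and ethylene (16), bZIP (18), sugar and starch (46), nitrogen and amino acids (18), detoxification and redox (76), metal and ion transport (57) and kinases (56) held none after the 5 genes were set aside; GI, LIR1 and PCL1 belong to the first, JAZ2 to the second and SAPK9 to the third. In GR14 against WT the limma test called 4 of the 12 clock and light genes higher and 1 lower, and 8 of the 81 abscisic acid and drought genes higher and 3 lower, where 2.7% of all tested probe sets were higher and 2.96% lower. GI, LIR1, PCL1 and SAPK9 met the rule on the same arrays, so these counts are not independent of the choice. In the other 11 of these lists, 0 to 4 genes were called higher and 0 to 4 lower. Higher and lower counts were 0 and 3 for bZIP, 1 and 0 for WRKY, and 1 and 2 for jasmonate. They were 1 and 3 for nitrogen and amino acids and for sugar and starch, and 1 and 2 for kinases. Detoxification and redox had 4 and 4, metal and ion transport 3 and 3, and the remaining lists 0 and 0. JAZ2 met the rule, so the jasmonate count is not independent of the choice either. No gene of any of the 15 lists passed in 35S-15 or HFL1 against WT.

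None of the 79 probe sets matched a marker of pericarp, embryo, aleurone, endosperm or vascular tissue by symbol. Only 4 of the 79 carry an informative symbol and the others could not match, so this does not say that no marker is among them. Pericarp markers were low in the same arrays. Of 9 green pericarp and photosynthesis genes, 7 (among them PORA, an enzyme of chlorophyll synthesis) had all 3 GR14 arrays below the other 9, as did 4.77% of all tested probe sets, and 6 were lower in the limma test of GR14 against WT, as were 2.96% of all. Their summed signal on the log2 scale was 15.77 to 15.85 in GR14, 16.42 to 16.57 in WT, 16.68 to 17.09 in 35S-15 and 16.65 to 16.92 in HFL1. The summed signal of 11 embryo and aleurone genes was 15.38 to 16.84 in GR14 and 14.33 to 16.64 in the other groups. Of these genes 1, OsVP1, had GR14 above the other 9 arrays, as did 5.89% of all tested probe sets. The summed signal of 10 endosperm genes was 18.46 to 18.89 in GR14 and 18.17 to 19.09 elsewhere, and that of 5 vascular and maternal genes 15.99 to 16.04 and 15.85 to 16.24. All 10 endosperm genes were brighter on average than the array medians, and no marker signal was listed at 0. For these 3 lists GR14 lay within or overlapped the range of the other groups. In the limma test of GR14 against WT 1 embryo and aleurone gene was higher and 1 endosperm gene lower. No other gene of these 3 lists passed, where 2.7% of all tested probe sets were higher and 2.96% lower. The part of tissue makeup in the GR14 signals was not tested.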

How the data were processed

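For each of 12 arrays the authors deposited a linear intensity for every probe set, made with MAS5 per the submitters' processing notes, with neither version nor settings given there. A mean trimmed by 2% at both ends came to 499.9 for each array, so the arrays had been scaled to a common level. No detection calls were used, and precision is limited by how many arrays there are. Every per-sample column was used (0 unused). RNA was extracted with Trizol and 6 ug of total RNA was labelled, per the labels' protocols.

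Here the intensity was turned into log2 values without renormalizing. Control probe sets (123 AFFX, 64 RPTR) took no part in the choice or the tests. A model of 4 groups was fitted to 31792 probe sets with limma 3.58.1 under R 4.3.3 (lmFit, then eBayes letting the variance follow intensity). Its two-sided p-values were adjusted by Benjamini-Hochberg over all probe sets fitted, with a threshold of 0.05. The procedure was also run on simulated data with independent noise, which cannot say how it does where arrays differ as the WT arrays did. The ± of a fold is the model's SE. Tables and figures were made with Python 3.11.15. Array numbers within a group are names only.

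Probe sets were named from the array's annotation (22436 of the 57194 had 1 gene, 95 several and 34663 none), with symbols brought up to date by gene ID from RefSeq (assembly ASM3414082v1), of which no coordinates are given, as no build is named for the array. The transcripts, the lists and the tests were chosen with earlier results of these data known. Lists were matched by symbol, and 11 synonyms that matched by letters alone were removed; each gene of a list was read from its brightest tested probe set. The naming rule took every chosen gene with an informative symbol, the 10 widest gaps, the 5 highest GR14 means, 3 on each side of each threshold, list members, and examples of genes with other probe sets; probe sets named for the lowest p or as lying apart were chosen after values were seen. A search of promoters for motifs was planned and not run, as no sequence was used here. Alternatives were quantile normalization, median centring, log2(signal + 50), other filters and thresholds, no intensity trend, 1 probe set per gene, other sets of arrays, and leaving out each array.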

Additional observations from a re-analysis of the deposited data

How the results depend on the processing

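The number of probe sets that met the rule was 79, and between 63 and 100 in 18 of 21 alternatives. Those among the 21 that left out arrays outside GR14 could not give fewer than 79, so they do not check the choice. It was 225 with a gap of at least 0.5 and 17 with a gap of at least 2, and leaving out 1 array in turn gave 79 to 152, with 152 without GR14 array 3; fewer arrays make the rule easier to meet. Of the 79, 78 were chosen again after quantile normalization (82 in all), 77 after median centring (86) and 69 with log2(signal + 50) (71). In the 3 comparisons without GR14, the count of the 79 that passed limma was 0 under every alternative run. The median log2 fold of the 79 in 35S-15 against WT was -0.232 after median centring, and -0.157 to 0.00275 on leaving out single arrays. Median centring also moved the median of all tested probe sets, to -0.14 in that comparison. In HFL1 against WT the median was 0.171 with WT array 1 as the only control and -0.0571 to 0.134 on leaving out single arrays, so its direction is not settled. In HFL1 against 35S-15 the median of the 79 was 0.187 after median centring, which moved the median of all tested probe sets to 0.083. It was 0.0641 to 0.177 on leaving out single arrays. The causes were not tested. No paired analysis was possible because the labels give the groups no shared replicate numbers. Where a transcript lies near or below the array median, the size of a fold is uncertain.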
